A study of Homo sapiens with 12 samples.

Results

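The chemokine genes CXCL1, CXCL2, CXCL3, CXCL5, CXCL6, CXCL8, CCL2, CCL5, CCL20 and CXCL12 were followed in MDA-MB-231, an established human cell line of triple-negative breast cancer, treated for 24 h with manassantin, rotenone or digoxin, or with the vehicle DMSO. The 10 genes were picked by symbol with earlier results of these data known, as were the gene lists used below. Their counts beside the shares of all genes are therefore description. All 10 genes were found among the 11963 genes measured, and 15 probe sets carried their symbols. Each group had 3 Affymetrix arrays of total RNA from cells grown in serum-containing medium. Manassantin, given as manassantin A by the design text, is a lignan from plants. Rotenone blocks respiratory complex I, and digoxin, a cardiac glycoside, the sodium pump. Digoxin is the name in the sample titles, while the design text has digitoxin, so the identity of this glycoside is open. The sources used here state neither doses nor oxygen. The labels do not say whether replicate arrays stem from separate cultures. The p-values therefore set a difference only against the spread of these arrays, and that spread may be technical.

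Chemokines are small secreted proteins that direct the movement of leukocytes and other cells through G-protein-coupled receptors. CXCL1, CXCL2, CXCL3, CXCL5, CXCL6 and CXCL8 (interleukin-8) share a glutamate-leucine-arginine motif before the first cysteines, signal through CXCR2 (CXCL6 and CXCL8 also through CXCR1), attract neutrophils and promote the growth of vessels. CCL2 attracts monocytes through CCR2, CCL5 attracts T cells and monocytes, CCL20 is the ligand of CCR6, and CXCL12 that of CXCR4 and ACKR3. Transcription of many of these genes is induced through NF-kB, with AP-1 and C/EBP factors as partners, and their mRNAs are unstable because of AU-rich elements that ZFP36 binds. MDA-MB-231 cells are known as producers of CXCL8.

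The stretch upstream of the start site is shown for the 5 genes that rose with digoxin by more than the slight change of CXCL12, and for CXCL5 and CXCL6, which lie in the same cluster on chromosome 4 and gave low values on every array. Sequences are from RefSeq, build GRCh38.p14, the 150 bases before the start, read 5′ to 3′ along the gene. Capitals mark matches to any of the motifs searched.
CXCL8, chr4:73740419-73740568, plus strand: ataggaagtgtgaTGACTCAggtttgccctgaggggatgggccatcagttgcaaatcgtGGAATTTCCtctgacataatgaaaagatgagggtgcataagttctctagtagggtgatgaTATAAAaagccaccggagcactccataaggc
CXCL1, chr4:73869243-73869392, plus strand: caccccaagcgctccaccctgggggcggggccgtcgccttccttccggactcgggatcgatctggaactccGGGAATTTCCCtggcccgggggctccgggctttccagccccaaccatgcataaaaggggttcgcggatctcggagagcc
CXCL2, chr4:74099196-74099345, minus strand: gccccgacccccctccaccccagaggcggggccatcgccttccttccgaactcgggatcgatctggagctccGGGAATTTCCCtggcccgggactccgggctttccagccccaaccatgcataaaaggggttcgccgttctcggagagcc
CXCL3, chr4:74038690-74038839, minus strand: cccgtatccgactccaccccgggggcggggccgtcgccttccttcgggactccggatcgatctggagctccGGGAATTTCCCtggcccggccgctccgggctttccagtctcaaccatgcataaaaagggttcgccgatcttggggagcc
CCL20, chr2:227813692-227813841, plus strand: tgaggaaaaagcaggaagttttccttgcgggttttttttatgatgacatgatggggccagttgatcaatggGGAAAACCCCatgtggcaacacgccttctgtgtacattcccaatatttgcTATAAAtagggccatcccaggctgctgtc
CXCL5, chr4:73998678-73998827, minus strand: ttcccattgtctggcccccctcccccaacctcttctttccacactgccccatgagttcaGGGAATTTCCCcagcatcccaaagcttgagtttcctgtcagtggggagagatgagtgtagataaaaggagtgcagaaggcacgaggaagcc
CXCL6, chr4:73836528-73836677, plus strand: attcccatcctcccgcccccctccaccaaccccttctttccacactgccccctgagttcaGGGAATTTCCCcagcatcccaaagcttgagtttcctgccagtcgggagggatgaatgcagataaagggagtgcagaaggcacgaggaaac
Promoter windows of 300 bases, 250 before the start and 50 after it, were given for 8 of the 10 genes, all but CCL2 and CCL5. The letters GGAATTTCC, a kappa-B core, stood in 6 of the 8, those of CXCL1, CXCL2, CXCL3, CXCL5, CXCL6 and CXCL8, against 0.461% of 35116 promoter windows. They lay at -91 to -83 in CXCL8, at -77 to -69 in CXCL2 and at -90 to -82 in CXCL5, counted from the start site. The longer kappa-B consensus was matched in 6 of the 8 too, with CCL20 at -79 to -70 in place of CXCL8, against 11.3% of windows, and in the other 5 it overlaps the core. The AP-1 letters TGANTCA were found in CXCL8 at -137 to -131 and in none of the other 7 windows (7.71% of all windows), and TATAAA in CXCL8 and CCL20 (11.5% of all windows). TTGCNNAA, a C/EBP motif, was found in CXCL2 at -188 to -181 alone, before the printed stretch (10.5% of all windows). Both strands were searched for every motif. The printed stretches of CXCL1 and CXCL2 were 88.7% identical, those of CXCL1 and CXCL3 88.1%, and those of CXCL5 and CXCL6 89.4%. A match describes these letters and not a bound site, and a missing match does not show that a site is absent. The printed CXCL8 stretch, for example, holds ttgcaaat, which differs from the C/EBP letters searched only in its last letter. CXCL5 and CXCL6 carry the same core as the CXC genes that rose by more than CXCL12.

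All levels are log2 intensities of a probe set as deposited, and a difference of 1 is a factor of 2 on the array. A level cannot be set against that of another gene, because probe sets differ in brightness. Where a gene had several probe sets, the brightest stands for it. Genes with a mean over all arrays below 5.747, the 40th percentile of all genes, are called dim. CXCL5, CXCL6, CCL2, CCL5, CCL20 and CXCL12 were dim, and CXCL1, CXCL2, CXCL3 and CXCL8 were not. CXCL3 passed this limit narrowly, at 5.748, and only through its rotenone and digoxin arrays, since its means were 5.403 with manassantin and 5.349 with DMSO. Differences were tested with limma on all 12 arrays, and a gene is called where its Benjamini-Hochberg adjusted p over all 11963 genes is under 0.05.

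Array medians ran from 5.881 to 5.995. In arrays of cells in bulk, fewer cells of a type and less RNA per cell cannot be told apart. VIM, CD44, CAV1, MSN, KRT18 and KRT8, genes known in this line, averaged 11.67 to 11.75 with digoxin and 11.97 to 12.05 with DMSO, and all 6 fell with digoxin. None of the 6 was dim, and 26.9% of all genes and 38.3% of genes that were not dim were called lower with digoxin. Leukocytes are a usual source of chemokines, and 5 leukocyte marker genes were measured, all dim, with PTPRC at a mean of 2.969 over all arrays. Their mean level was 3.86 to 3.96 with manassantin, 3.96 to 4.05 with rotenone and 3.9 to 4.01 with digoxin, against 3.91 to 3.95 with DMSO, and 1 of the 5, ITGAM, rose with digoxin (0.24 ± 0.083, SE). In that comparison 28.0% of all genes and 23.4% of dim genes were called higher. Probe sets of 18S rRNA, a control for the RNA target, differed from DMSO by -0.565 with manassantin, -0.388 with rotenone and -0.314 with digoxin (exact permutation tests, two-sided, p = 0.3, 0.2 and 0.2, where 3 against 3 cannot go below 0.1). The part of this control in the results was not tested.

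CXCL8 carried the largest change of the 10. It had 7.62, 7.79 and 7.67 with manassantin, 8.03, 8.25 and 8.25 with rotenone and 10.99, 11.15 and 11.34 with digoxin, against 7.33, 7.54 and 7.55 with DMSO. The digoxin arrays stood far above all others, and the rotenone arrays lay between them and the rest without overlap. CXCL8 rose by 3.69 ± 0.098 (SE, n = 3 per group) with digoxin, or 12.9-fold (adjusted p = 1.47e-10), and by 0.70 ± 0.098 with rotenone, or 1.62-fold (adjusted p = 0.0015, limma). Of the 11963 genes 1 rose more with digoxin, EGR1 at 3.81, named here after its value was seen. A second probe set of CXCL8 had 9.5, 9.83 and 9.81 with digoxin, against 5.66, 5.48 and 5.53 with DMSO, a rise of 4.15 or 17.8-fold. With rotenone this probe set rose by 0.56 (adjusted p over all probe sets 0.0202). The distance between both probe sets was 1.32 to 1.53 on the digoxin arrays and 1.67 to 2.06 on the DMSO arrays, a difference of -0.47 (exact permutation test, two-sided, p = 0.1, the smallest possible).

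CXCL2 followed. Its values were 6.44, 6.36 and 6.3 with manassantin, 7.18, 7.16 and 7.41 with rotenone and 8.51, 8.68 and 8.69 with digoxin, against 6.28, 6.14 and 5.99 with DMSO. The rotenone and digoxin arrays were each set apart from all other groups. It rose by 2.49 ± 0.089 with digoxin (5.62-fold, adjusted p = 8.39e-10) and by 1.11 ± 0.089 with rotenone (2.16-fold, adjusted p = 5.11e-05, limma). CXCL2 is the 1 gene of the 10 that more than doubled with rotenone, where it ranked 5 of 11963 by size of rise.

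CXCL1, a close paralog of CXCL2 and CXCL3, had 6.34, 6.42 and 6.28 with manassantin, 6.48, 6.62 and 6.67 with rotenone and 8.18, 8.39 and 8.57 with digoxin, against 6.13, 6.24 and 6.2 with DMSO. The digoxin arrays were again far above the rest, while the rotenone arrays were higher than the DMSO arrays by a small margin. It rose by 2.19 ± 0.088 with digoxin (4.57-fold, adjusted p = 1.78e-09) and by 0.40 ± 0.088 with rotenone (1.32-fold, adjusted p = 0.019, limma). The rotenone call was lost without any 1 of rotenone replicates 2 and 3 or DMSO replicates 1, 2 and 3, with a rise of 0.36 to 0.43 and adjusted p from 0.0513 to 0.0757.

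CXCL3 had 5.49, 5.44 and 5.28 with manassantin, 5.79, 6.06 and 6.1 with rotenone and 6.22, 6.17 and 6.38 with digoxin, against 5.46, 5.34 and 5.25 with DMSO. Here the rotenone arrays came close to the digoxin arrays. The rise was 0.91 ± 0.093 with digoxin (1.88-fold, adjusted p = 4.18e-06) and 0.63 ± 0.093 with rotenone (1.55-fold, adjusted p = 0.00205, limma). Tested directly, CXCL3 was lower with rotenone than with digoxin by -0.28 ± 0.093 (adjusted p = 0.0264), a call lost without rotenone replicate 1 (-0.18, adjusted p = 0.118) or digoxin replicate 3 (adjusted p = 0.0978). CXCL1, CXCL2 and CXCL3 are near-identical in places. The CXCL2 probe set and both of CXCL8 are of kinds marked as matching several transcripts, as are the brightest of CXCL5 and that of CCL2. How far each probe set reads other genes was not tested.

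The other neutrophil attractants of the cluster gave low values throughout. CXCL6 ranged from 2.37 to 2.81 over the 12 arrays and CXCL5 from 2.95 to 3.54. Neither was called against DMSO with any compound (adjusted p 0.428 to 0.883 for CXCL6 and 0.22 to 0.629 for CXCL5). CXCL5 had 3.25, 2.98 and 2.95 with manassantin against 3.54, 3.51 and 3.4 with digoxin, and was lower with manassantin in that comparison by -0.42 ± 0.10 (adjusted p = 0.00416). With the mean of its 3 probe sets in place of the brightest, the difference was -0.14 and still called. The other 2 CXCL5 probe sets, at 2.11 to 2.3 and 1.86 to 2.1 over all arrays, were not called against DMSO, nor in manassantin against digoxin, where they stood at 0.02 (adjusted p over all probe sets 0.807) and -0.03 (0.747).

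**Figure D1:**
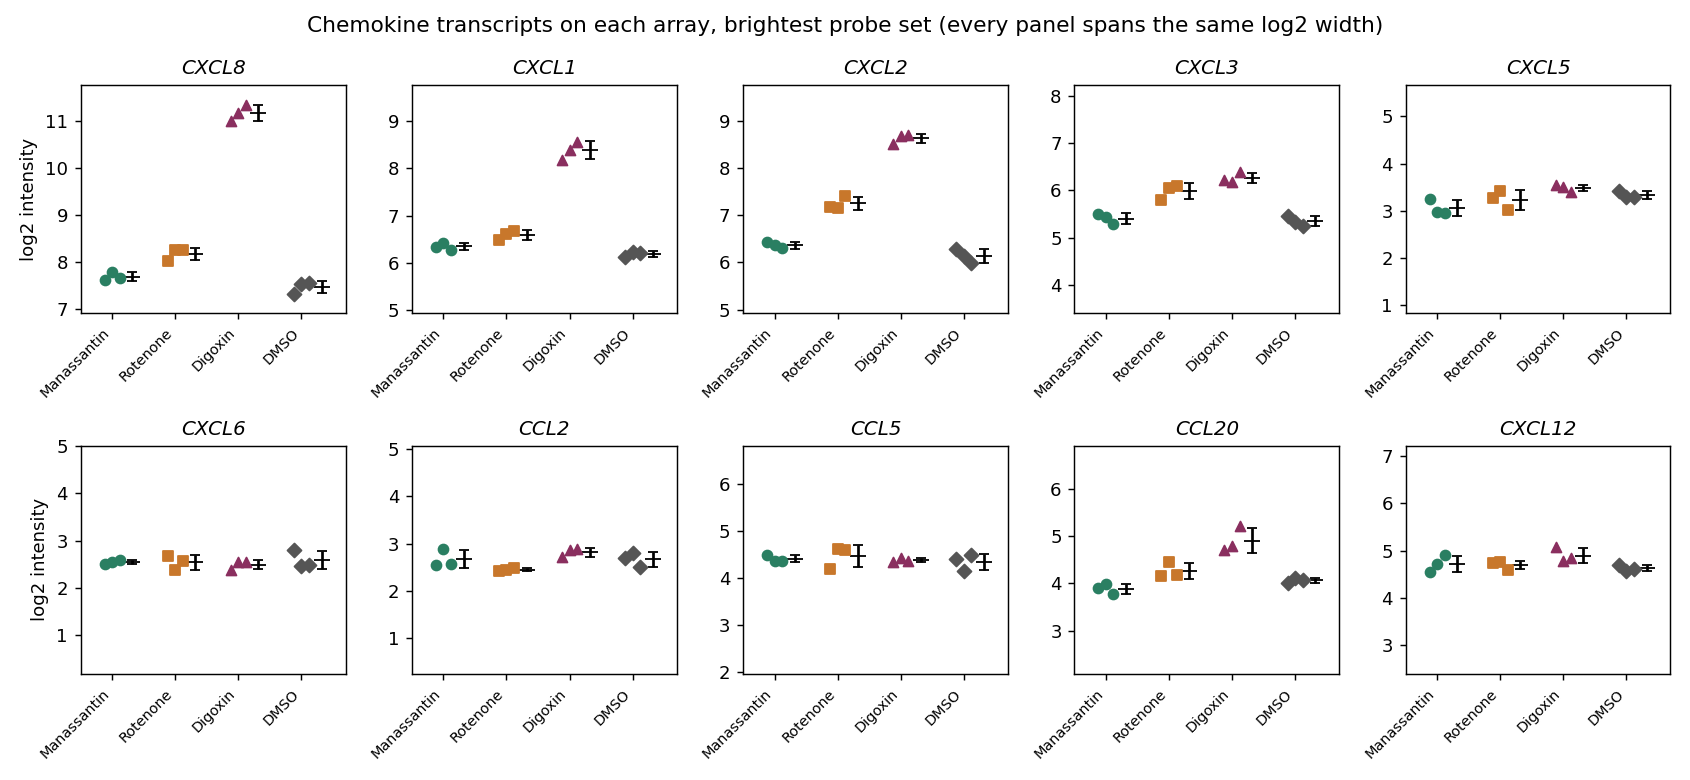
Log2 intensity (vertical axis, the same width of log2 units in every panel) of the 10 genes on each array, brightest probe set, for manassantin, rotenone, digoxin and DMSO from left to right; coloured points are arrays and the black mark beside them the mean with its SD (n = 3). The digoxin points of CXCL8 lie between 10.99 and 11.34 and those of DMSO between 7.33 and 7.55, while CXCL6 stays between 2.37 and 2.81 on all arrays.

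Of CCL2, CCL5 and CCL20, only CCL20 was called with a compound against DMSO, and that with digoxin. It had 3.9, 3.99 and 3.78 with manassantin, 4.16, 4.45 and 4.18 with rotenone and 4.72, 4.79 and 5.22 with digoxin, against 4.02, 4.12 and 4.07 with DMSO. The 4 groups did not overlap, with manassantin lowest, then DMSO, rotenone and digoxin. With digoxin it rose by 0.84 ± 0.12 (1.79-fold, adjusted p = 7.79e-05). With rotenone the difference was 0.19 ± 0.12 (adjusted p = 0.413) and with manassantin -0.18 ± 0.12 (adjusted p = 0.503, limma), neither past the threshold. CCL20 was dim, and digoxin replicate 3 gave its highest value. Without that array the rise was 0.68.

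CCL2 ranged from 2.42 to 2.89 and CCL5 from 4.16 to 4.61 over the 12 arrays, both dim. Neither was called against DMSO (adjusted p 0.198 to 0.984 for CCL2 and 0.609 to 0.844 for CCL5). For CCL2 the 3 rotenone arrays, at 2.42, 2.44 and 2.49, lay below the digoxin arrays at 2.71, 2.86 and 2.89, a difference of -0.37 ± 0.098 (adjusted p = 0.00706).

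CXCL12, the ligand of CXCR4, had 4.54, 4.72 and 4.9 with manassantin, 4.74, 4.75 and 4.59 with rotenone and 5.07, 4.78 and 4.84 with digoxin, against 4.7, 4.57 and 4.62 with DMSO. The digoxin arrays lay above the DMSO arrays by a narrow margin and overlapped the manassantin arrays. The rise with digoxin was 0.26 ± 0.096 (1.2-fold, adjusted p = 0.0351, limma), and the second probe set was at 0.22 (adjusted p over all probe sets 0.0521). The call was lost with quantile normalization (adjusted p = 0.0702), with the replicate number as a block (0.0527) and without digoxin replicate 1 (0.143), DMSO replicate 2 (0.103) or DMSO replicate 3 (0.0801). Among all 4785 dim genes 23.4% were called higher and 9.72% lower with digoxin, and their median difference was 0.124.

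With digoxin 6 of the 10 genes rose and 0 fell against DMSO, where 28.0% of all genes were called higher and 26.9% lower (54.8% in all). The digoxin and DMSO arrays did not overlap for the same 6, against 61.9% of all genes. The median over the 10 was 0.55, against 0.0651 over all genes. With rotenone 4 of the 10, CXCL1, CXCL2, CXCL3 and CXCL8, rose and 0 fell, where 3.55% of all genes were called higher and 3.39% lower (6.94% in all). The rotenone and DMSO arrays did not overlap for 6, the 4 called genes and CCL20 higher and CCL2 lower, against 31.2% of all genes. The median over the 10 was 0.154, against 0.0124 over all genes. The comparisons share the DMSO arrays, and the 10 genes were chosen with earlier results of these data known. The order of rises was CXCL8, CXCL2, CXCL1, CXCL3 and CCL20 with digoxin, and CXCL2, CXCL8, CXCL3 and CXCL1 with rotenone. The 95% intervals of CXCL2 (0.92 to 1.31) and CXCL8 (0.49 to 0.91) with rotenone did not overlap, nor did those of CXCL8 (3.47 to 3.9) and CXCL2 (2.3 to 2.68) with digoxin. With rotenone the interval of CXCL3 (0.43 to 0.84) overlapped those of CXCL8 and CXCL1 (0.21 to 0.59). With digoxin those of CXCL2 and CXCL1 (2 to 2.38) overlapped, as did those of CXCL3 (0.71 to 1.11) and CCL20 (0.57 to 1.1). A difference between 2 genes was not tested.

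With manassantin 0 of the 10 genes were called against DMSO by limma, where 0.853% of all genes were called higher and 0.117% lower (0.970% in all). At an unadjusted p under 0.05 there were 3 of the 10, and 1896 of all 11963 genes. The differences were 0.23 ± 0.089 for CXCL2 (adjusted p = 0.231), 0.22 ± 0.098 for CXCL8 (adjusted p = 0.303), 0.16 ± 0.088 for CXCL1 (adjusted p = 0.411) and 0.05 ± 0.093 for CXCL3 (adjusted p = 0.83). CXCL5, the lowest in adjusted p of the 10, stood at -0.27 ± 0.10 (adjusted p = 0.22). All 3 manassantin arrays lay above all 3 DMSO arrays for CXCL1, CXCL2 and the brighter probe set of CXCL8, and below them for CXCL5 and CCL20. The second CXCL8 probe set, with 5.88, 5.4 and 5.5 with manassantin against 5.66, 5.48 and 5.53 with DMSO, overlapped and stood at 0.03 (adjusted p over all probe sets 0.936). Groups did not overlap for 22.4% of all genes in this comparison. The 95% interval of CXCL8 ran up to 0.43 and that of CXCL2 up to 0.42.

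**Figure D2:**
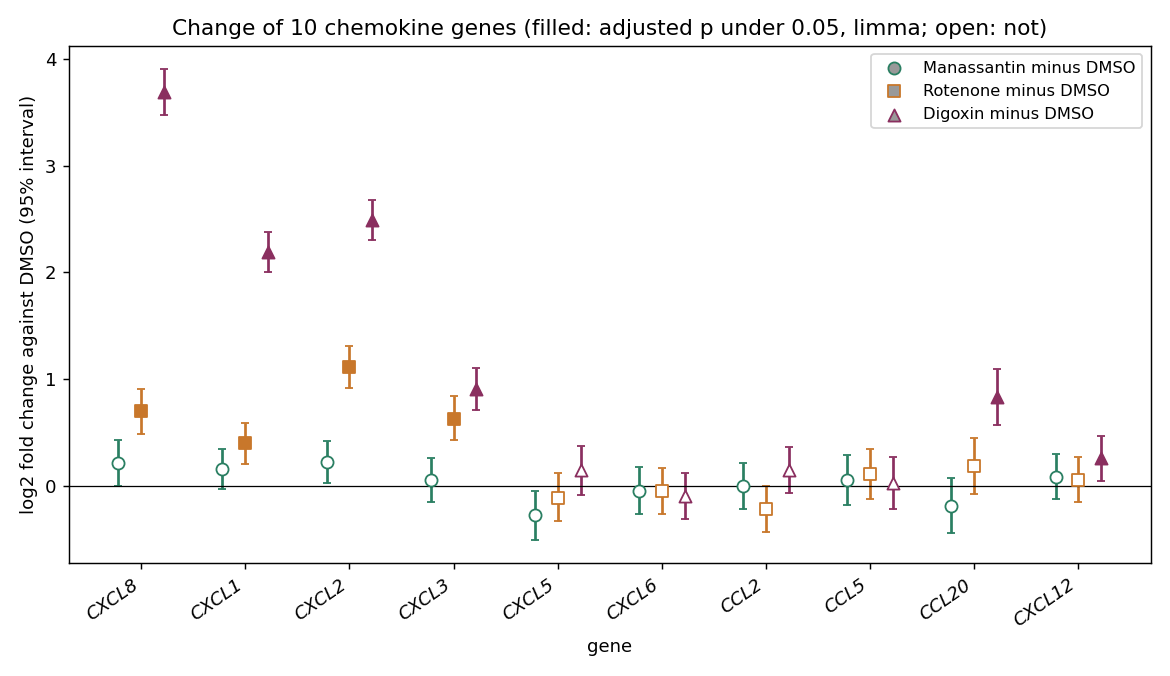
Log2 fold change against DMSO (vertical axis) of the 10 genes for manassantin, rotenone and digoxin, with the 95% interval of the limma fit; filled marks are genes with an adjusted p under 0.05. Digoxin marks of CXCL8, CXCL2 and CXCL1 stand at 3.69, 2.49 and 2.19, rotenone reaches 1.11 for CXCL2, and all 10 manassantin marks are open.

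The compounds were also set against each other, at doses not known here. CXCL2, CXCL3 and CXCL8 were lower with manassantin than with rotenone, by -0.89 ± 0.089 (adjusted p = 0.000209), -0.58 ± 0.093 (adjusted p = 0.00335) and -0.48 ± 0.098 (adjusted p = 0.012, limma). The CXCL8 call was lost without rotenone replicate 2 (adjusted p = 0.053) or rotenone replicate 3 (adjusted p = 0.0531). These 3 were the called genes of the 10, where 4.69% of all genes were called higher and 3.78% lower (8.47% in all). CXCL1 differed by -0.24 ± 0.088 (adjusted p = 0.117) and CCL20 by -0.37 ± 0.12 (adjusted p = 0.0794), neither past the threshold, although their arrays did not overlap. Arrays did not overlap for 6 of the 10 here, against 29.2% of all genes.

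CXCL1, CXCL2, CXCL3, CXCL8 and CCL20 were lower with manassantin and with rotenone than with digoxin. With manassantin 6 of the 10 were lower and 0 higher, where 28.1% of all genes were called higher and 28.6% lower (56.7% in all). Arrays did not overlap for the same number, against 59.7% of all genes. The differences were largest for CXCL8 at -3.47 ± 0.098, CXCL2 at -2.26, CXCL1 at -2.03, CCL20 at -1.02 and CXCL3 at -0.85. CXCL12 was not called by its brighter probe set (-0.18, adjusted p = 0.135, limma). Its second probe set was lower with manassantin (-0.25, adjusted p over all probe sets 0.0305). With rotenone 6 of the 10 were lower and 0 higher, where 26.3% of all genes were called higher and 24.2% lower (50.5% in all). Arrays did not overlap for 7 of the 10, against 58.1% of all genes. CXCL8 stood at -2.99 ± 0.098, CXCL1 at -1.79, CXCL2 at -1.38 and CCL20 at -0.65. No gene of the 11963 was lower by more with rotenone against digoxin than CXCL8.

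CXCL8, CXCL6, CXCL1, CXCL5, CXCL3 and CXCL2 lie in this order in a cluster on chromosome 4, with the platelet chemokine genes PF4V1, PF4 and PPBP among them. Genes that rose with rotenone or digoxin stood among genes that did not pass the test. CXCL3 and CXCL2 are neighbours in this order, and CXCL8 and CXCL1 stand apart from them and from each other. Between CXCL8 and CXCL1 lay CXCL6, at -0.10 with digoxin and -0.05 with rotenone, and PF4V1, at -0.05 with digoxin, none called. Between CXCL1 and CXCL3 lay PF4, which rose by 0.18 ± 0.073 with digoxin (adjusted p = 0.0477), with PPBP at 0.00 and CXCL5 at 0.15, neither called. CXCL6, PF4V1, PPBP and CXCL5 were all dim. Group means ran from 2.28 to 2.41 for PF4V1 and from 2.56 to 2.58 for PPBP. Whether these genes were expressed at all was not tested.

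**Figure D3:**
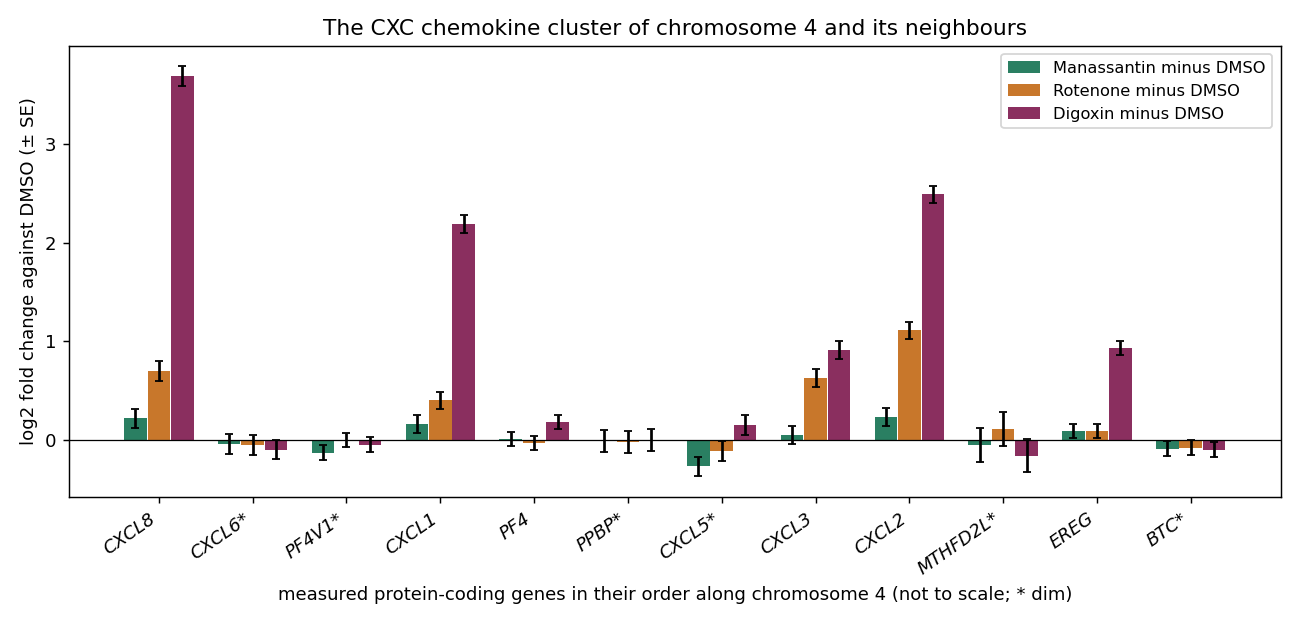
Log2 fold change against DMSO (bars, with the SE of the limma fit) of the 12 measured genes from CXCL8 to BTC in their order along chromosome 4, not to scale, for manassantin, rotenone and digoxin; a star marks dim genes. The digoxin bars of CXCL8 (3.69), CXCL1 (2.19) and CXCL2 (2.49) are tall, and those of CXCL6 (-0.10) and PPBP (0.00), which lie between them, are near 0.

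Of 24 other measured chemokine ligands, 23 of them dim, 0 were called with manassantin and 0 with rotenone. Over all genes 0.970% were called with manassantin and 6.94% with rotenone. Among dim genes 0.0627% were called higher and 0.0836% lower with manassantin, and 0.731% higher and 1% lower with rotenone. Counts of 0 are thus near those of dim genes at large. With digoxin 7 rose and 1 fell (median 0.144), where 28.0% of all genes and 23.4% of dim genes were called higher, so the count of rises was near that of genes at large. Largest were CCL22 at 0.40, CCL23 at 0.39, XCL1 and CXCL14 at 0.37 each, all dim. CXCL11, an interferon-induced ligand of CXCR3, fell by 0.41 ± 0.10 (adjusted p = 0.00512). CXCL10, induced the same way, stood at -0.31 with rotenone (adjusted p = 0.0746) and -0.07 with digoxin (adjusted p = 0.547), neither past the threshold. The count with digoxin was 13 higher with each array centred on its median, 1 higher with dim genes left out and 4 higher without digoxin replicate 2.

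Of 21 measured chemokine receptors 4 fell and 6 rose with digoxin (median 0.105), against 28.0% of all genes higher and 26.9% lower. All but CXCR4 and CCRL2 were dim, 19 of the 21. CXCR4, the receptor of CXCL12, had 6.9, 6.86 and 6.99 with digoxin, against 7.84, 7.95 and 8.05 with DMSO, and fell by 1.03 ± 0.058 (adjusted p = 2.58e-08). CCRL2, an atypical receptor that binds chemerin, had 7.81, 7.77 and 7.72 with rotenone and 6.95, 6.96 and 6.92 with digoxin, against 8.16, 8.22 and 8.08 with DMSO. CCRL2 fell by 0.39 ± 0.052 with rotenone (adjusted p = 0.00116) and by 1.21 with digoxin. It was the 1 receptor of the 21 called with rotenone, where 3.39% of all genes were called lower (6.94% in all). That count was near the share of genes at large. ACKR3, which takes up CXCL12, fell by 1.06 ± 0.18 with digoxin, and CCR1 by 0.50. The largest rise was of CCR4, at 0.51. CXCR2, the receptor of CXCL1, CXCL2, CXCL3 and CXCL8, was dim, with 2.37 to 2.89 over all arrays, and stood at 0.14 with digoxin (adjusted p = 0.149). With manassantin 0 of the 21 were called, against 0.970% of all genes. The 6 rises with digoxin became 0 with dim genes left out (the 4 falls became 2), 2 without DMSO replicate 3 and 3 without digoxin replicate 2 or DMSO replicate 1.

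In the NF-kB route, from the cytokines IL1A, IL1B and TNF to the Rel factors and their inhibitors, 13 of 23 measured genes rose and 4 fell with digoxin (median 0.336, against 0.0651 over all genes), where 28.0% of all genes were called higher and 26.9% lower. TNFAIP3, an NF-kB-induced inhibitor of that route, rose by 1.80 ± 0.052, the deubiquitinase gene CYLD by 1.23, NFKBIB by 1.20 and RELB by 1.07. IL1R1, the interleukin-1 receptor, had 4.9, 4.5 and 4.83 with digoxin, against 6.27, 6.24 and 6.09 with DMSO, and fell by 1.46 ± 0.098. IKBKB, a kinase of the inhibitors, fell by 0.84 and the adaptor genes TRADD by 0.82 and MYD88 by 0.38. NFKBIA, an inhibitor gene that is itself a target of NF-kB, stood at 0.07 with digoxin (adjusted p = 0.212) and 0.06 with rotenone (adjusted p = 0.482). With rotenone 7 of 23 rose and 0 fell (median 0.104), where 3.55% of all genes were called higher, led by TNFAIP3 at 0.52, NFKBIE at 0.48 and RELB at 0.31. That count was 2 or 3 without any 1 of the rotenone or DMSO arrays. With manassantin TNIP1, a partner of TNFAIP3, rose by 0.34 ± 0.056 (adjusted p = 0.019) and NFKB1 fell by 0.32 ± 0.057 (adjusted p = 0.0294). In that comparison 0.853% of all genes were called higher and 0.117% lower. The NFKB1 call was lost without any 1 of the 6 manassantin or DMSO arrays, and the TNIP1 call without any of them but DMSO replicate 1.

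Of 12 AP-1 and C/EBP factor genes, 7 rose and 2 fell with digoxin (median 0.436) and 6 rose and 0 fell with rotenone (median 0.236). Over all genes 28.0% were called higher and 26.9% lower with digoxin, and 3.55% higher and 3.39% lower with rotenone. CEBPD rose by 2.07 ± 0.068 with digoxin, where it stood at 0.07 with rotenone (adjusted p = 0.651). FOS rose by 1.97 with digoxin and by 0.84 with rotenone, FOSL2 by 1.86 and 0.64, ATF3 by 1.63 and 0.78 and JUNB by 1.14 and 0.84, in the same order of compounds. FOS was dim, as was FOSB, which rose by 0.88 ± 0.11 with rotenone and by 0.45 with digoxin. With manassantin FOSL2 rose by 0.30 ± 0.052 (adjusted p = 0.0263), a call lost without any 1 of the 6 manassantin or DMSO arrays. In that comparison 0.853% of all genes were called higher.

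Of 11 genes that control decay of AU-rich mRNAs, 5 rose and 4 fell with digoxin, where 28.0% of all genes were called higher and 26.9% lower. DUSP1, a phosphatase that turns off the p38 kinase, whose activity slows this decay, rose by 1.89 ± 0.11, ZFP36, the decay factor tristetraprolin, by 0.76 and MAPKAPK2, a kinase that inactivates it, by 0.48. TIA1, a repressor of translation, fell by 1.58 ± 0.17 with digoxin and HNRNPD by 0.53. TIA1 stood at -0.61 with rotenone (adjusted p = 0.0539). With rotenone DUSP1 rose by 0.87 ± 0.11, MAPKAPK2 by 0.23 and ZFP36 by 0.22. That count of 3, where 3.55% of all genes were called higher, was 1 without rotenone replicate 1 or 2, or without DMSO replicate 1 or 2. With manassantin 0 of the 11 were called, against 0.970% of all genes.

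**Figure D4:**
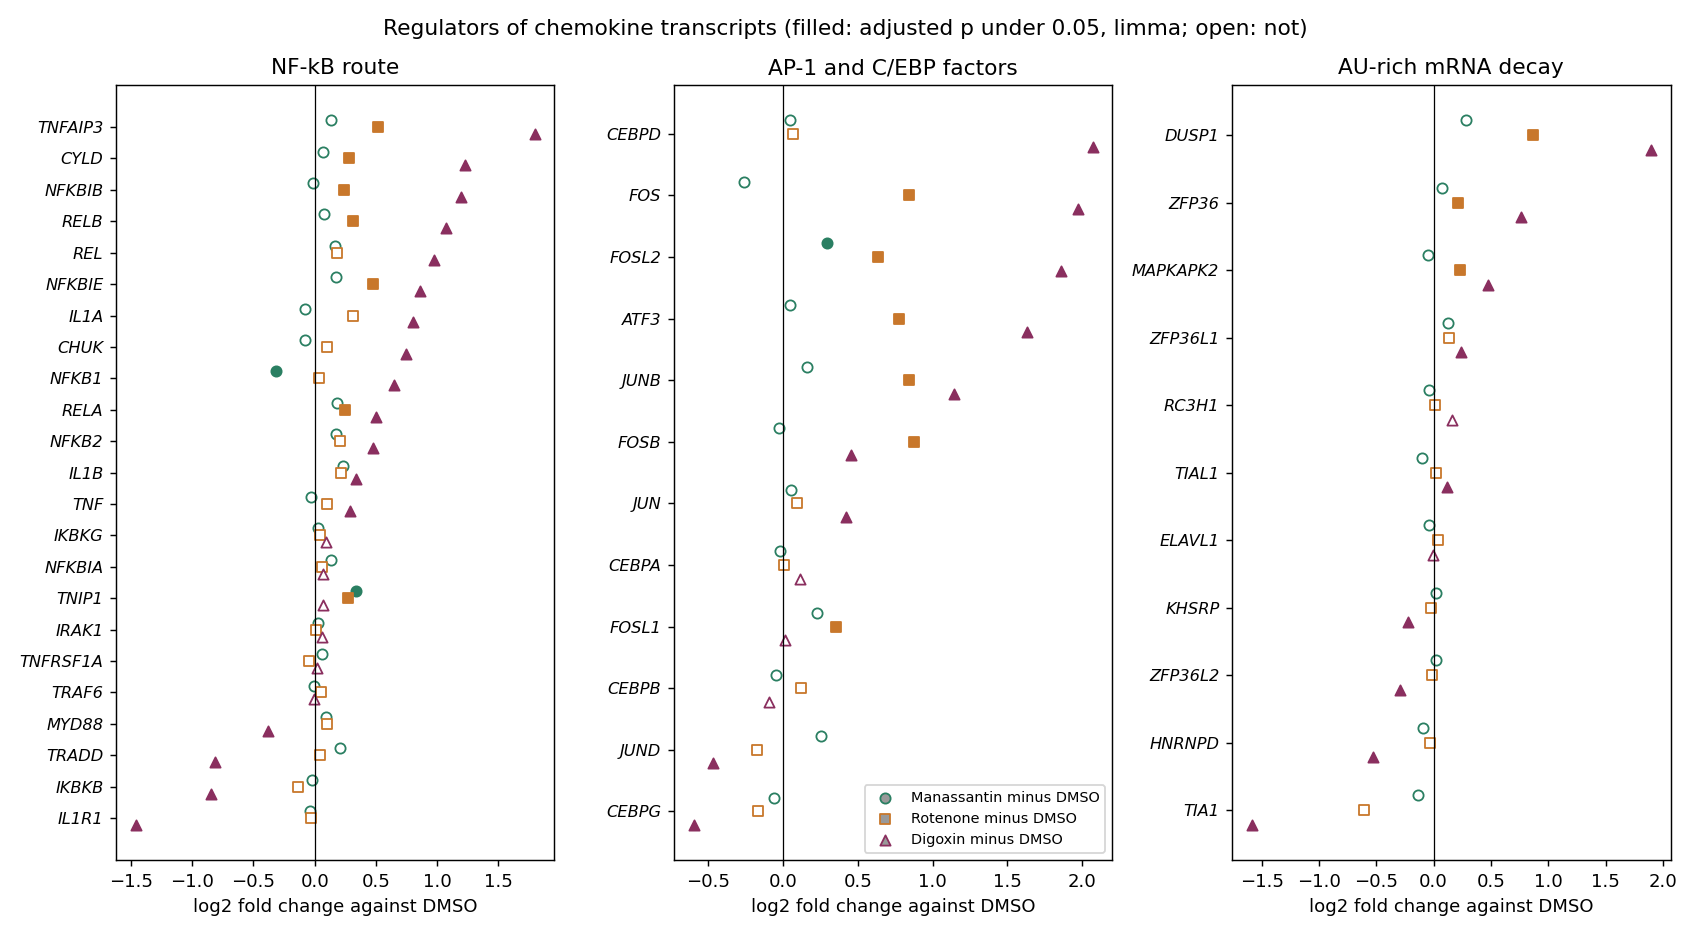
Log2 fold change against DMSO (horizontal axis) of the genes of the NF-kB route, of AP-1 and C/EBP factors and of AU-rich mRNA decay, for manassantin, rotenone and digoxin, ordered by the digoxin change; filled marks have an adjusted p under 0.05 in limma. Digoxin marks run from -1.46 for IL1R1 to 1.80 for TNFAIP3 in the first panel, and CEBPD stands at 2.07 in the second.

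Among the genes outside the 10, those nearest to CXCL8 in pattern were IL6, IL11 and ABL2, by the Euclidean distance over the 12 arrays of log2 values taken from each gene's DMSO mean (distances 0.997, 1.15 and 1.25). IL6 stood at 0.15 with manassantin, 0.85 with rotenone and 3.2 with digoxin. IL11 stood at 0.01, 0.35 and 3.21 in the same order of compounds. Nearest to CXCL2 were ADM, ABL2 and DUSP1 (1.18, 1.24 and 1.26), and nearest to CCL20 were URB1, ENTPD7 and ATP6V1B2 (0.357, 0.418 and 0.453). Within the 10 genes CXCL1 and CXCL2 were 1.39 apart and CXCL3 and CCL20 0.97 apart, while CXCL8 and CXCL3 were 4.84 apart. This distance is not scaled and depends on the size of the changes. Genes with little change therefore lay nearer still, such as CXCL6 and CCL2 at 0.73.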

How the data were processed

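Gene expression was read on 12 Affymetrix arrays, 3 in each of 4 groups, taken from the sample titles. The values deposited by the authors are 1 summary per probe set, taken to be log2 intensities because they run from 1.655 to 13.75. How the authors corrected background, summarised and normalized them is not known from the labels. Of 22277 probe sets, 62 were controls, and platform annotation named 1 symbol for 19064, several for 1043 and none for 2108. The brightest probe set of a gene was used. The tests came from limma 3.58.1 (R 4.3.3), with lmFit and eBayes on group alone, with 8 residual and 3.68 prior degrees of freedom. Benjamini-Hochberg adjustment ran over 11963 genes within each of 6 comparisons. No filter on dim genes was used, and the number of arrays limits the precision.

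The members and the gene lists were chosen with earlier results of these data known. Genes named are the 10 members, up to 4 leading called genes of a list or genes named for their role, and the 3 nearest patterns to CXCL8, CXCL2 and CCL20. Exceptions, chosen after their values were seen, are EGR1, ITGAM, further genes of the AP-1 and decay lists, and genes of the cluster that are no members. On simulated data of 11963 genes, digoxin against DMSO, recovery was 50.4% for changes of 0.3 (log2), 79.2% for 0.5 and 99.4% for 1. Of the genes called there 5.62% were false. Few genes were changed in the simulation, with independent noise, while 54.8% of genes were called in the data. Recovery in the data can therefore differ. Same-numbered arrays were checked by the correlation of their deviations from group means. All 3 pairs were over 0.1 only for manassantin and rotenone (0.107 to 0.362), though the labels do not say what a number marks. Alternatives were other scalings, probe set rules, priors and sample sets, and the replicate block. Promoter stretches were aligned with Biopython 1.88, and figures drawn with Python 3.11.15 and matplotlib 3.10.9.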

Additional observations from a re-analysis of the deposited data

How the results depend on the processing

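The number of the 10 chemokine genes called kept within 1.5 times its value in all 6 comparisons under all 8 other settings and with each array left out. Under the 8 settings it was 4 to 6 for digoxin against DMSO, 4 to 7 for manassantin against digoxin and 4 to 8 for rotenone against digoxin. One of these settings left out dim genes, and with them the 6 dim members. With 1 array left out it was 0 for manassantin, 3 to 4 for rotenone and 5 to 6 for digoxin against DMSO, 2 to 3 for manassantin against rotenone, 6 to 7 for manassantin against digoxin and 5 to 7 for rotenone against digoxin. The replicate number as a block left the genes called at 0 with manassantin, 4 with rotenone and 5 with digoxin against DMSO, the lost one being CXCL12 (adjusted p = 0.0527). In manassantin against rotenone, where the numbers met the criterion for pairing, the block left the same 3 genes called. CXCL5 passed in rotenone against digoxin with the block (-0.26, adjusted p = 0.0255), and no other call of the 10 changed. In each of the 12 arrays the best-correlated array of another group had its own number, a hint from the data and not from the design. CCL20 in manassantin against rotenone passed with a trended robust prior (adjusted p = 0.0499). Of the recomputed differences of members with little change, 27 changed sign, none larger than 0.106, and 9 passed the threshold, all against digoxin. These were CXCL12 with array centring (adjusted p = 0.0246 for manassantin, 0.0197 for rotenone), with the mean of its probe sets (0.00434 and 0.00631) and without manassantin replicate 3 (0.0344). The others were CCL2 without manassantin replicate 2 (0.0218), and CXCL5 in rotenone against digoxin with centring (0.013), without rotenone replicate 2 (0.0159) and with the block.

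In 3 comparisons the share of all genes called moved by more than 1.5 times. For manassantin against DMSO it was 0.97%. It became 6.84% without dim genes, 4.2% under a trended robust prior, 2.43% with the replicate block, 0.0334% in a fit on the compared groups only and 0.0585% to 0.209% with 1 array left out. For rotenone against DMSO it was 6.94%, and 18.1% without dim genes, 11% under a trended robust prior and 2.89% to 4.18% with 1 array left out. For manassantin against rotenone it was 8.47%, and 21.5%, 12.9% and 4.18% to 6.98% under the same settings. Centring each array on its median moved the share of higher genes among those called with digoxin against DMSO to 65.0%, against 51.0% as deposited. It moved to 35.5% against 49.6% for manassantin against digoxin, and to 36.9% against 52.1% for rotenone against digoxin. The AP-1 and C/EBP count with manassantin was 0 to 3 higher under other settings. What moved these counts was not tested.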

Other observations

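Beyond the chemokine cluster on chromosome 4, the next measured genes include ligands of the EGF receptor family. EREG, epiregulin, averaged 7.16 with manassantin, 7.16 with rotenone and 8.0 with digoxin, against 7.07 with DMSO. It rose by 0.93 ± 0.074 with digoxin (adjusted p = 5.28e-07, limma) and stood at 0.09 with rotenone (adjusted p = 0.572). MTHFD2L, which lies between CXCL2 and EREG, stood at -0.16 with digoxin (adjusted p = 0.436), and BTC, betacellulin, at -0.10 (adjusted p = 0.297), both dim and neither past the threshold.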
